A study of Mus musculus with 6 samples.

Results

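The genes described here are 6 dual-specificity phosphatase genes that switch off MAP kinases (Dusp1, Dusp2, Dusp4, Dusp5, Dusp6 and Dusp10) and 4 suppressor of cytokine signalling genes (Socs1, Socs2, Socs3 and Cish). They were chosen by name from a table of 11175 genes, which listed all 10. RNA was sequenced from CD8+ T cells of the spleen of wild-type (WT) mice, the cytotoxic lineage of T lymphocytes. All 6 cultures were stimulated for 48 h with antibodies to CD3, which carries antigen receptor signals, and CD28, a costimulatory receptor. One group of 3 libraries had no further treatment (control) and 1 group of 3 was cultured with DOPAC (3,4-dihydroxyphenylacetic acid, a breakdown product of dopamine), at a dose not given in the sources used here. Whether the 3 replicates of a group were separate animals is not stated, and the p-values therefore speak of the scatter among 6 libraries, possibly technical in part. In bulk RNA, fewer cells that express a gene and less of its RNA per cell cannot be told apart.

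As background, antigen receptor signals activate the MAP kinases ERK, p38 and JNK, and the DUSP phosphatases remove the phosphates from the threonine and tyrosine that keep these kinases active. Cytokines such as interleukin-2 act through JAK kinases, which phosphorylate STAT transcription factors, and SOCS proteins bind the receptors or the JAKs and lower that signal. Many of these brakes are transcribed in answer to the pathway they limit, which makes them feedback genes. In T cells they are known to set the strength and length of activation.

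The promoter windows of 3 members are shown because they held a match to a motif of the factors that answer these pathways. The windows are from RefSeq on GRCm38.p6, reach from 250 bases before to 50 after the start of a gene, and matched 8 of the 10 members by symbol. Dusp4 and Socs2 were not matched. The starts are those of RefSeq and can lie inside the GENCODE M21 gene spans given below. For Dusp1, on the minus strand, the window ends at 26508722 and the span at 26562128. The searched letters were TTCNNNGAA (bound by STAT factors), TGACGTCA (the cyclic AMP response element), TGANTCA (AP-1) and CCGGAAG (ETS factors), on both strands. Capitals mark the matches.

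Cish, on the plus strand at chr9:107296409-107296708, held 2 STAT matches just after the start: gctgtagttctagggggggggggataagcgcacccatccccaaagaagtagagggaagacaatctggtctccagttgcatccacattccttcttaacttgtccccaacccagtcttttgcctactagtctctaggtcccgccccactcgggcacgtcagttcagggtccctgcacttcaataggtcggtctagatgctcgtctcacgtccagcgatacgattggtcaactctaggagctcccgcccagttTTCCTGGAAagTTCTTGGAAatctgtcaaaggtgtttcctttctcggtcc

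Socs3, on the minus strand at chr11:117969317-117969616, held 1 STAT match: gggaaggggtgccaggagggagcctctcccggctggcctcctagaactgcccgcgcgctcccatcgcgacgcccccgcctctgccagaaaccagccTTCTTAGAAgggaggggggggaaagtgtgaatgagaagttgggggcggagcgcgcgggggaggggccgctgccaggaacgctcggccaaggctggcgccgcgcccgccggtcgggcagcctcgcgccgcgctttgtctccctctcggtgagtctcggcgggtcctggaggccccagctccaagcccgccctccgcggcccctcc

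Dusp1, on the minus strand at chr17:26508423-26508722, held 1 match to the cyclic AMP response element: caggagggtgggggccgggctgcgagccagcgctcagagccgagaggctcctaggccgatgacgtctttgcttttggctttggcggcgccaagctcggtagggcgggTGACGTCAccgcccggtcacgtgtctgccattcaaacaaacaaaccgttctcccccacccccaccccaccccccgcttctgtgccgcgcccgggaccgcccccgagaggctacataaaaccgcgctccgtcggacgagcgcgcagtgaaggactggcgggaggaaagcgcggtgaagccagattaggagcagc

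These matches are a description of letters and not of binding. The STAT letters were in 2 of the 8 member windows, in 8.30% of all 32851 windows and in 6.91% of the 9876 windows of genes in the expression table. The cyclic AMP response element was in 1 of the 8, in 1.79% of all windows and in 3.31% of those of table genes. AP-1 letters were in 0 of the 8 (7.81% of all windows and 4.55% of those of table genes). ETS letters were also in 0 of the 8 (8.86% and 20.5%).

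Expression was given as FPKM (fragments per kilobase of transcript, scaled to the size of the library), so that levels of genes can be compared per length. Read counts are not recorded in this unit, which leaves sequencing depth unknown and allows no counting interval. The test took in the 10887 genes that averaged 1 FPKM or more, all 10 members among them. Control replicate 1 stood apart. On the log2(FPKM + 1) scale, Pearson's r over genes (which are not independent replicates) between it and any other library was at most 0.917, while those 5 gave 0.974 to 0.992 among themselves. The 7 markers of CD8 T cells were all listed and summed to between 981 and 1069 FPKM in the controls and between 894 and 998 FPKM with DOPAC. Of the macrophage markers 2 of 6 were listed (Lyz2 and Cd68), with sums of 14.2 to 33.8 FPKM in the controls and 4.45 to 12.4 FPKM with DOPAC. Of the fibroblast markers 3 of 4 were listed, with sums of 25.7 to 27.9 FPKM and 0.330 to 16.01 FPKM. Of the B cell markers 1 of 4 was listed (1.54 to 2.49 FPKM and 1.47 to 2.61 FPKM), and of the erythroid markers 2 of 5 (2.72 to 10.4 FPKM and 0.280 to 3.02 FPKM). None of the markers fixed for CD4 T cells, neutrophils, dendritic cells and NK cells was listed.

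Dusp4, Dusp5 and Dusp6 had higher values with DOPAC, Dusp1 and Dusp2 had lower ones, and the SOCS genes showed no common direction. None of these differences passed the test. With limma's moderated test, Benjamini-Hochberg adjusted over all genes, 0 of the 10 members had an adjusted p under 0.05, beside 0 of all 10887 genes (0%). At an unadjusted p under 0.05 there was 1 member, Dusp1, beside 456 of all genes (4.19%), and with the replicate numbers as a block its unadjusted p by limma was 0.074. The groups did not overlap for 4 members, where 17.2% of all genes did so. Dusp5 and Dusp6 lay higher with DOPAC (12.4% of all genes) and Dusp1 and Dusp2 lower (4.80% of all genes). Log2 fold changes are of FPKM + 1 unless stated otherwise, which understates changes of low genes. The median log2 fold change was 0.033 over the 10 members and 0.066 over all genes tested. Of all genes 62.1% were higher with DOPAC, and 51.3% when every library was given the same median.

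**Figure D1:**
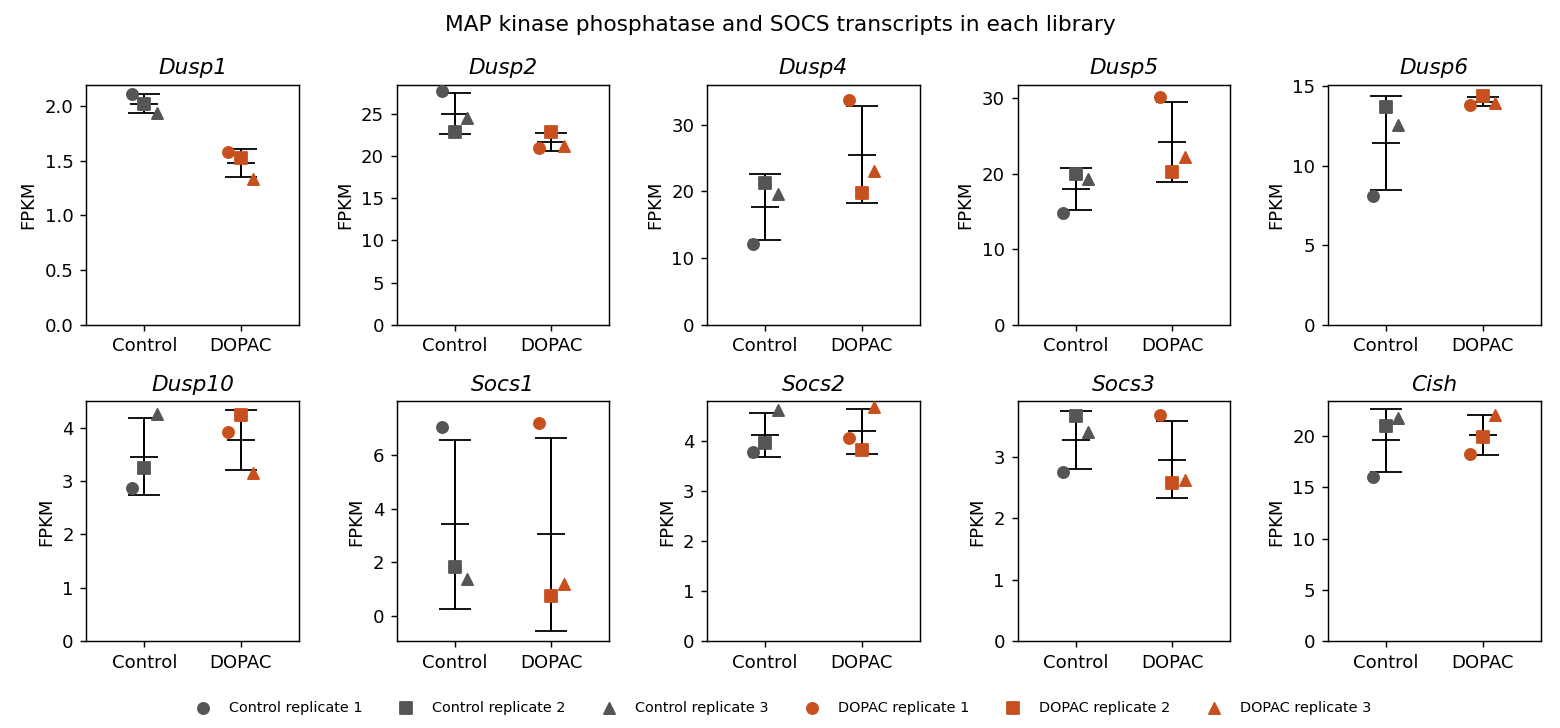
FPKM (vertical axis, linear) of each of the 10 genes in the 3 control libraries (grey) and the 3 DOPAC libraries (orange), with circles, squares and triangles for replicates 1, 2 and 3, and the mean with its SD as black bars. The 3 DOPAC values of Dusp1 and Dusp2 lie below every control value, those of Dusp5 and Dusp6 above every control value, and Socs1 is high in replicate 1 of both groups.

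By their mean over all 6 libraries the members fell into an upper and a lower range. Dusp2 was the highest at 23.3 FPKM, followed by Dusp4 at 21.6, Dusp5 at 21.1 and Cish at 19.8 FPKM. These 4 overlapped in their ranges and had no fixed order from library to library. Dusp6 followed at 12.7 FPKM, and each of its 6 values lay under every value of Cish. The other 5 members were lower again, and every Dusp6 value was above every value of Socs2. Socs2 averaged 4.16, Dusp10 3.61, Socs1 3.23 and Socs3 3.12 FPKM. The ranges of Dusp10 and Socs1 overlapped with each other and with those of Socs2 and Socs3. Every value of Socs2 lay above every value of Socs3. Dusp1 had the lowest mean, 1.75 FPKM, and each of its values lay under every value of Socs3. The order of Dusp1 and Socs1 depended on replicate 1, since Socs1 was under Dusp1 in 4 of the 6 libraries and above it in both replicate 1 libraries. Dusp2 thus lay at percentile 79.8 of the genes tested and Dusp1 at percentile 10.9.

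Dusp4 (MKP-2), a nuclear enzyme that acts on ERK and JNK, lies on chromosome 8 at 34807297 to 34819894 (positions are those of GENCODE M21, build GRCm38 or mm10). It measured 12.1, 21.3 and 19.5 FPKM in control replicates 1 to 3 and 33.7, 19.7 and 23.1 FPKM in DOPAC replicates 1 to 3. Control replicate 1 was the lowest and DOPAC replicate 1 the highest library, and the groups overlapped because DOPAC replicate 2 lay under control replicate 2. This gave a log2 fold change of 0.51 (95% interval -0.14 to 1.16, adjusted p = 0.801 by limma). It was 0.27 when control replicate 1 was left out and 0.30 when DOPAC replicate 1 was. With each replicate number compared within itself, the ratio of DOPAC to control for Dusp4 was 2.79 in replicate 1, 0.925 in replicate 2 and 1.18 in replicate 3.

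Dusp5, an ERK phosphatase of the nucleus, lies on chromosome 19 at 53529109 to 53542431. It measured 14.8, 19.9 and 19.2 FPKM in the controls and 30.1, 20.2 and 22.3 FPKM with DOPAC. All DOPAC values lay above all controls, with DOPAC replicate 2 just above control replicate 2. Its log2 fold change of 0.40 (95% interval -0.07 to 0.87, adjusted p = 0.801 by limma) became 0.27 with control replicate 1 left out and 0.24 with DOPAC replicate 1 left out. The library kits do not mark strand, and 547 bp of Dusp5's exons overlap the antisense gene AC137853.2, so reads of these genes cannot be told apart there.

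Dusp6 (MKP-3), which holds ERK inactive in the cytoplasm, lies on chromosome 10 at 99263231 to 99267489. It measured 8.09, 13.7 and 12.6 FPKM in the controls and 13.8, 14.4 and 13.9 FPKM with DOPAC. The 3 DOPAC libraries lay close together and just above control replicates 2 and 3, while control replicate 1 was far lower. Its log2 fold change of 0.30 (95% interval -0.17 to 0.78, adjusted p = 0.801 by limma) became 0.090 without control replicate 1.

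Dusp2 (PAC-1), a nuclear phosphatase first known from activated lymphocytes, lies on chromosome 2 at 127336159 to 127338376. It measured 27.7, 22.9 and 24.5 FPKM in the controls and 21.0, 22.9 and 21.1 FPKM with DOPAC. The groups did not overlap, but control replicate 2 and DOPAC replicate 2 differed by little, with a ratio of 0.999. On the log2 scale Dusp2 differed by -0.20 (95% interval -0.50 to 0.11, adjusted p = 0.801 by limma), and by -0.12 without control replicate 1.

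Dusp1 (MKP-1), an immediate-early gene whose product acts on p38, JNK and ERK, lies on chromosome 17 at 26505590 to 26562128. It measured 2.11, 2.02 and 1.94 FPKM in the controls and 1.58, 1.52 and 1.33 FPKM with DOPAC, and the groups were separate. Its means were 2.02 ± 0.0882 and 1.48 ± 0.131 FPKM (SD, n = 3 each). On the log2(FPKM + 1) scale Dusp1 differed by -0.29 (95% interval -0.55 to -0.02, by limma unadjusted p = 0.039 and adjusted p = 0.801). With the replicate numbers as a block the unadjusted p by limma was 0.074 (adjusted p = 0.698). When each library was left out in turn, the value ran from -0.32 to -0.24 and the unadjusted p by limma from 0.033 (without control replicate 1) to 0.150 (without DOPAC replicate 3), and 5 of these 6 fits gave a p above 0.05. The ratio of DOPAC to control was 0.749, 0.754 and 0.688 in replicates 1, 2 and 3. At so low a level the added 1 shrinks the log2 difference of Dusp1, which was -0.43 with 0.1 added instead. Dusp1 is also transcribed in macrophages, whose marker Lyz2 measured 11.2, 30.2 and 22.9 FPKM in the controls and 10.4, 2.57 and 3.01 FPKM with DOPAC. The fibroblast markers were lower with DOPAC too, and Col1a1, a collagen gene, measured 16.2, 15.1 and 13.96 FPKM in the controls and 0.160, 9.12 and 9.16 FPKM with DOPAC. The part of either cell type in the Dusp1 difference was not tested.

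Dusp10 (MKP-5), which acts on JNK and p38, lies on chromosome 1 at 184013302 to 184075636. It measured 2.86, 3.24 and 4.26 FPKM in the controls and 3.91, 4.24 and 3.16 FPKM with DOPAC, with overlapping groups. On the log2 scale Dusp10 differed by 0.10 (95% interval -0.30 to 0.51, adjusted p = 0.861 by limma), and by 0.0085 with control replicate 1 left out.

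**Figure D2:**
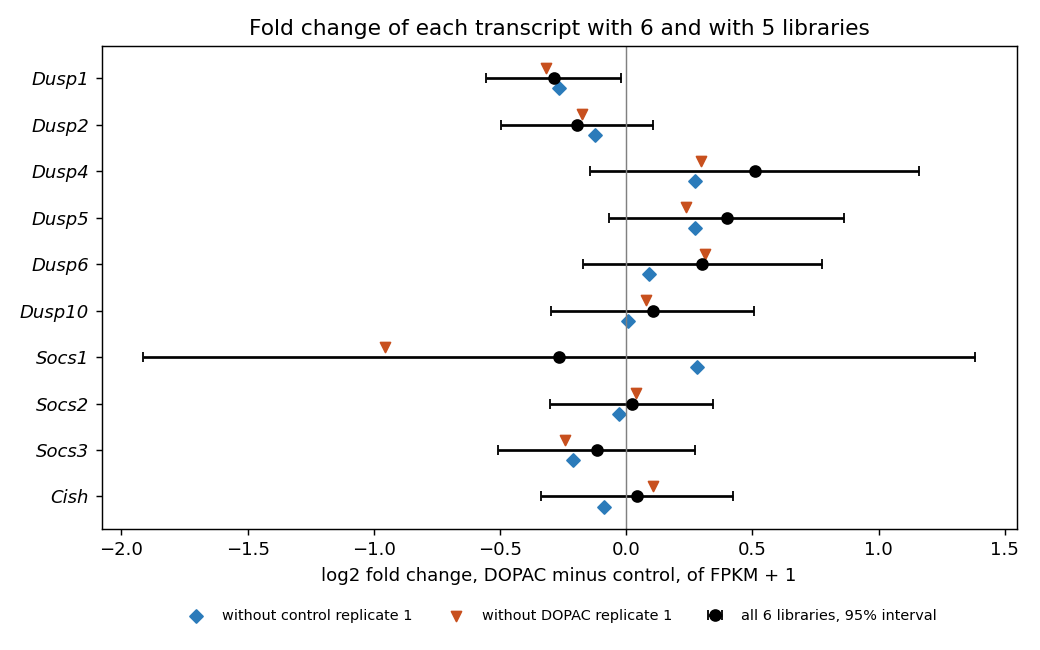
Log2 fold change of FPKM + 1, DOPAC minus control (horizontal axis), for each gene: black points with limma's 95% interval use all 6 libraries, blue diamonds leave out control replicate 1 and orange triangles leave out DOPAC replicate 1. Dusp1 is the only gene whose interval excludes 0, Dusp4 goes from 0.51 to 0.27 and Dusp6 from 0.30 to 0.090 without control replicate 1, and Socs1 has the widest interval.

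Among the SOCS genes Cish was by far the most abundant. Its product CIS binds cytokine and antigen receptor signalling proteins and is induced by STAT5. The gene lies on chromosome 9 at 107296026 to 107302784, and its exons overlap the pseudogene Gm17040 by 261 bp and the antisense gene Gm17041 by 479 bp. Cish measured 16.01, 21.0 and 21.7 FPKM in the controls and 18.3, 19.9 and 22.1 FPKM with DOPAC. The groups covered nearly the same range, with replicate 1 the lowest and replicate 3 the highest library in each. A log2 fold change of 0.044 resulted (95% interval -0.34 to 0.42, adjusted p = 0.939 by limma). Its sign flipped with equal medians (-0.014), and without control replicate 1 it was -0.087.

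Socs2, another STAT5 target, which limits growth hormone and cytokine receptors, lies on chromosome 10 at 95385362 to 95417180. It measured 3.78, 3.97 and 4.62 FPKM in the controls and 4.07, 3.84 and 4.69 FPKM with DOPAC. Replicate 3 was the highest library in both groups. Its log2 fold change was 0.021 (95% interval -0.30 to 0.34, adjusted p = 0.969 by limma), and its sign flipped with quantile normalization (-0.032) and with equal medians (-0.037). For Cish and Socs2 the intervals thus reach changes of about the same size in either direction.

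Socs3, which blocks receptors of the interleukin-6 family and interleukin-12, lies on chromosome 11 at 117966079 to 117970047. It measured 2.75, 3.67 and 3.41 FPKM in the controls and 3.68, 2.57 and 2.62 FPKM with DOPAC. DOPAC replicate 1 was the highest of all 6 libraries, just above control replicate 2, and DOPAC replicates 2 and 3 were the lowest. On the log2 scale Socs3 differed by -0.12 (95% interval -0.51 to 0.27, adjusted p = 0.844 by limma). Leaving out control replicate 1 gave -0.21 and leaving out DOPAC replicate 1 gave -0.24.

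Socs1, which inhibits JAK kinases directly and limits interferon gamma and interleukin-2 signals, lies on chromosome 16 at 10782240 to 10785536. It measured 7.05, 1.80 and 1.39 FPKM in the controls and 7.19, 0.736 and 1.19 FPKM with DOPAC. Replicate 1 was high in both groups and the other 4 libraries were low, so the main separation was of replicate 1 from the rest. Among the other 4 libraries both DOPAC values lay below both control values. With a log2 fold change of -0.27, Socs1 had the widest interval of the members (95% interval -1.91 to 1.38, adjusted p = 0.918 by limma). The value turned to 0.28 without control replicate 1 and 0.16 without DOPAC replicate 2, and was -0.96 without DOPAC replicate 1. Each of these fits leaves 1 replicate 1 library or 1 low library without its partner. With the replicate block kept and control replicate 1 left out, DOPAC replicate 1 had no partner, so only replicates 2 and 3 set the difference. On the log2(FPKM + 1) scale Socs1 then differed by -0.41 (unadjusted p = 0.068 and adjusted p = 0.349 by limma). At levels this low the added 1 shrinks that value. The ratio of DOPAC to control for Socs1 was 1.02, 0.408 and 0.853 in replicates 1, 2 and 3.

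Control replicate 1 was the lowest library for 6 of the 10 members (Dusp4, Dusp5, Dusp6, Dusp10, Socs2 and Cish) and the highest for 2 (Dusp1 and Dusp2). DOPAC replicate 1 was the highest for 4 (Dusp4, Dusp5, Socs1 and Socs3). Values in control replicate 1 moved with transcript length and GC content over all genes. Measured against the mean of the rest on the log2(FPKM + 1) scale, its median deviation was 0.48 for merged exon lengths up to 1000 bp and -0.67 over 8000 bp, and -0.59 for a transcript GC content up to 40% and 0.12 over 60%. The deviation of Dusp4 there was -0.87, that of Dusp6 -0.69 and that of Dusp5 -0.55, where genes over 2000 to 4000 bp long, the class of all 3, had a median of -0.12. The deviation of Socs1, in the same length class, was 1.47. The rest included the DOPAC libraries, so any difference between the groups is part of these deviations.

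The difference between the groups also moved with GC content. Over all genes the median log2 fold change went from 0.25 at a GC content up to 40% to -0.14 over 60%, and from 0.064 to -0.13 without control replicate 1. Dusp4 (GC content 56.0%) and Dusp5 (56.7%) lay far above the median of their class, over 55 to 60%, which was -0.079. Dusp2 (59.2%), Socs1 (58.8%) and Socs3 (58.7%) lay below that median. With the GC trend of each library removed, the log2 fold change was 0.56 for Dusp4, 0.47 for Dusp5, 0.21 for Dusp6, -0.27 for Dusp1 and -0.09 for Dusp2. Dusp1 thus kept nearly its value, while that of Dusp2 was smaller, and 0.013 when control replicate 1 was left out as well. Removing the GC trend was an alternative chosen after seeing the data. With all libraries it gave unadjusted p = 0.032 for Dusp5 and 0.038 for Dusp1, and adjusted p = 0.925 for both, by limma.

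**Figure D3:**
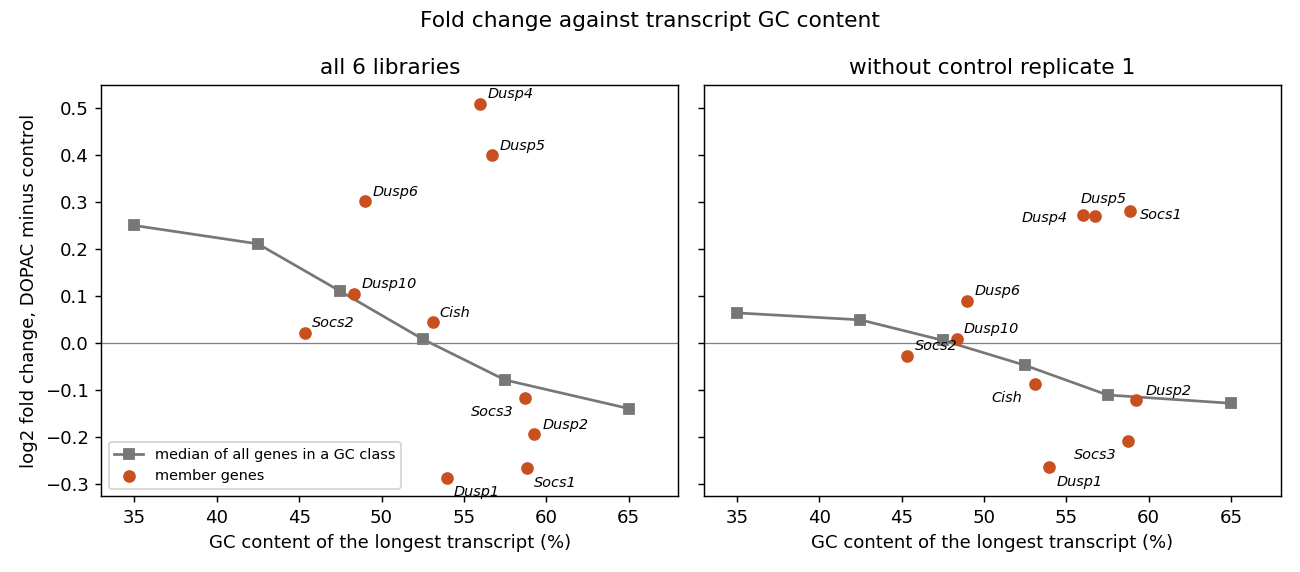
Log2 fold change, DOPAC minus control (vertical axis), against the GC content of a gene's longest transcript in percent (horizontal axis), for the 10 genes (orange) and as the median of all genes tested in 6 GC classes (grey squares, the outer classes drawn at 35 and 65%), with all 6 libraries (left) and without control replicate 1 (right). The class medians go from 0.25 to -0.14 on the left and from 0.064 to -0.13 on the right, and Dusp4 and Dusp5 lie above them in both panels.

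The kinases and brakes around these genes gave no called gene, which follows from 0 called among all 10887 genes tested. In the RAS-ERK cascade 15 of 15 listed genes were tested, 0 passed the adjusted threshold, 10 had positive and 5 negative log2 fold changes, and the median was 0.091 (-0.060 without control replicate 1). Map2k1, which encodes the kinase MEK1 that activates ERK, measured 16.1, 26.2 and 21.8 FPKM in the controls and 34.96, 29.3 and 31.0 FPKM with DOPAC. All DOPAC values of Map2k1 lay above all controls, with a log2 fold change of 0.57 (95% interval 0.11 to 1.03, adjusted p = 0.801 by limma) and 0.39 without control replicate 1. Map2k2, which encodes the related kinase MEK2, lay the other way at -0.25, with separate groups. Mapk3, which encodes the kinase ERK1, had 0.052 with overlapping groups, and its sign flipped with equal medians (-0.0064). Nras, a small GTPase at the head of the cascade, had 0.33, or 0.14 without control replicate 1.

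Other brakes on this pathway, such as sprouty proteins and RAS GTPase activators, were tested for 15 of 18 genes (9 positive, 6 negative, 0 called, median 0.036). The adaptor gene Dok1 had a log2 fold change of -0.33, its relative Dok2 -0.30 and Errfi1, an inhibitor of the EGF receptor, 0.29. Without control replicate 1 the median of this list was -0.17, with Dok1 at -0.17 and Errfi1 at 0.17. Of 19 other dual-specificity phosphatases 9 were in the table and tested, 8 positive and 1 negative, 0 called, with a median of 0.17 (0.065 without control replicate 1). Dusp11, which acts on RNA, had 0.36 (0.088 without that library), Dusp22 0.21 and Dusp14 0.18. In the p38 and JNK cascades 14 of 16 genes were tested (11 positive, 3 negative, 0 called, median 0.12, or -0.055 without control replicate 1). The kinase genes Map2k3 (-0.25) and Map2k7 (-0.22), which act on p38 and JNK, lay lower with separate groups, and Mapk8, the JNK1 gene, had 0.25 (0.098 without control replicate 1).

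Transcripts known to answer ERK signals did not share a direction with all 6 libraries. Of 18 listed genes 15 were tested, 7 positive and 8 negative, 0 called, with a median of -0.0017 (-0.10 without control replicate 1). Without that library 3 of the 15 were positive, where 47.3% of all genes were. Fos, an AP-1 subunit, measured 3.29, 3.48 and 3.39 FPKM in the controls and 1.11, 2.19 and 2.55 FPKM with DOPAC. The groups of Fos were separate and differed by -0.61 on the log2 scale (95% interval -1.10 to -0.11, by limma unadjusted p = 0.023 and adjusted p = 0.801), or by -0.38 without DOPAC replicate 1. Fos is also transcribed in macrophages, and the part of the lower macrophage and fibroblast marker values in this difference was not tested. Fosl1, another AP-1 subunit, had -0.45 with overlapping groups. Srf, the serum response factor that drives immediate-early genes such as Fos, had -0.28 with separate groups, and -0.088 with the GC trend removed.

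**Figure D4:**
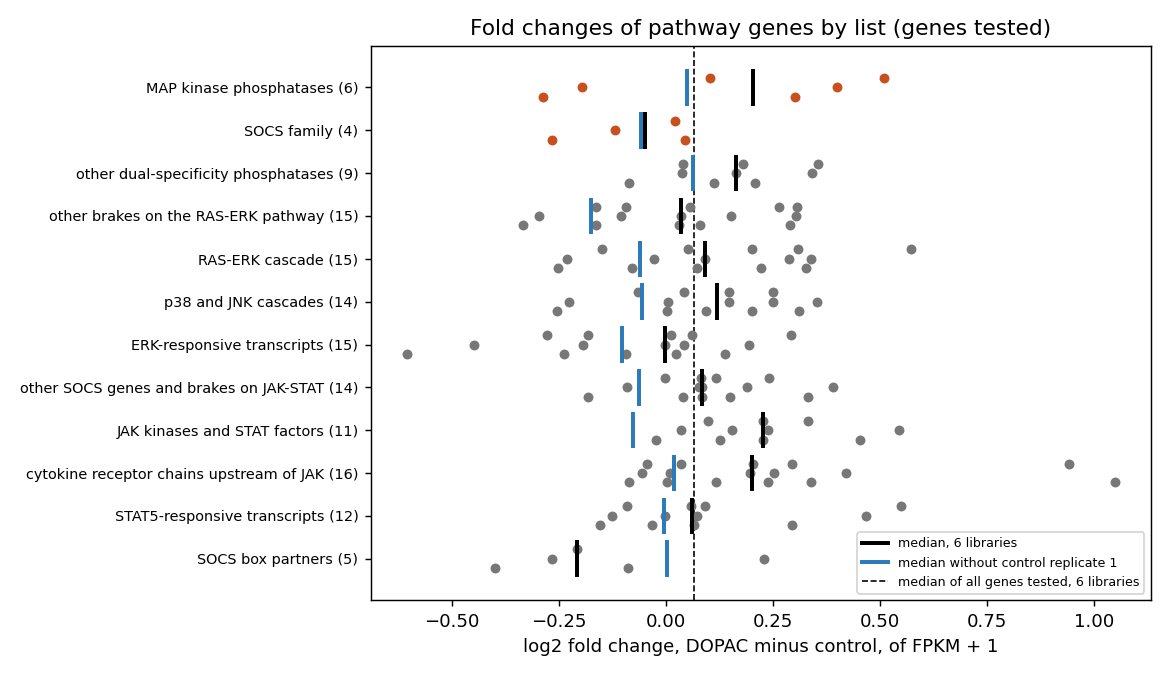
Log2 fold change of FPKM + 1, DOPAC minus control (horizontal axis), of every tested gene (points) in the 2 groups of members (orange) and in 10 lists of pathway genes (grey), with the number of genes in brackets. Black bars are list medians with all 6 libraries, blue bars those without control replicate 1, and the dashed line is the median of all genes, 0.066; the median of the JAK kinases and STAT factors goes from 0.23 to -0.077.

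On the cytokine side, 11 of 11 JAK kinase and STAT factor genes were tested, 10 positive and 1 negative, 0 called, with a median of 0.23 and -0.077 without control replicate 1. Stat4, which carries interleukin-12 signals, measured 23.1, 35.7 and 34.1 FPKM in the controls and 55.3, 40.03 and 40.7 FPKM with DOPAC. The groups of Stat4 did not overlap, with a log2 fold change of 0.55 (95% interval 0.03 to 1.06, by limma unadjusted p = 0.040 and adjusted p = 0.801), or 0.35 without control replicate 1. With the replicate block its unadjusted p by limma was 0.070. Stat3 had 0.45 and Stat2 0.33, with overlapping groups (0.23 and 0.15 without control replicate 1). Stat5a (-0.023) and Stat5b (0.15), the factors that induce Cish and Socs2, overlapped between the groups, as did Jak1 (0.24) and Jak3 (0.13). Without control replicate 1 these 4 values were -0.26, -0.13, -0.077 and -0.089.

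Receptor chains upstream of the JAKs were tested for 16 of 16 genes, 13 positive and 3 negative, 0 called, with a median of 0.20 (0.019 without control replicate 1). The interleukin-7 receptor gene Il7r measured 3.78, 7.90 and 6.28 FPKM in the controls and 14.8, 10.49 and 11.03 FPKM with DOPAC. Its log2 fold change was 0.94 (95% interval 0.33 to 1.55, by limma unadjusted p = 0.0087 and adjusted p = 0.801), or 0.69 without control replicate 1. Like other genes named for the smallest p of a list, Il7r is a selected extreme. Il12rb2, a chain of the interleukin-12 receptor that signals through Stat4, had 1.049 (0.74 without control replicate 1), and Ifngr1, a chain of the interferon gamma receptor, 0.42. Il2ra, the interleukin-2 receptor alpha chain, had 0.29 with overlapping groups, or 0.078 without control replicate 1.

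Transcripts known to answer STAT5 were tested for 12 of 13 genes, 7 positive and 5 negative, 0 called, with a median of 0.062 (-0.0049 without control replicate 1). Gzmb, the granzyme B gene, had 0.55 (0.30 without DOPAC replicate 1) and the survival gene Bcl2 0.47 (0.14 without control replicate 1), both with overlapping groups. Other SOCS genes and JAK-STAT brakes were tested for 14 of 15 genes (11 positive, 3 negative, 0 called, median 0.085, or -0.062 without control replicate 1). The phosphatase gene Ptpn2 had 0.24 (0.0016 with the GC trend removed), its relative Ptpn1 -0.18, and Socs4 0.33 (0.029 without control replicate 1). Of the SOCS box partners, through which SOCS proteins join a ubiquitin ligase, 5 of 7 listed names were tested, 1 positive and 4 negative, 0 called, with a median of -0.21. Without control replicate 1 the median was 0.0021, with 3 of the 5 positive. Elob ranged from 24.6 to 31.6 FPKM in 5 libraries and stood at 63.6 FPKM in control replicate 1, and its log2 fold change went from -0.40 to 0.0021 without that library.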

How the data were processed

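Transcripts were measured in 6 libraries, 3 control and 3 DOPAC, grouped and numbered by their library names. Per the labels' protocols, cDNA was made with a SMART-Seq HT kit and libraries with a Nextera XT kit. Per the submitters' processing notes, cutadapt 1.9, HISAT2 2.2.1 and build mm10 were used. Neither the estimator of expression nor the annotation is named in the sources used here. Per the file headers, the authors deposited FPKM for each gene in each library. The authors' log2 fold change and p-values are in the same table. That log2 fold change equalled the difference of mean log2(FPKM + 1) in all 11175 rows within 1e-06, and the authors' values are not printed here.

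From the FPKM, log2(FPKM + 1) was computed, which understates changes of low genes. Genes with a mean under 1 FPKM were left out (288). limma 3.58.1 in R 4.3.3 fitted DOPAC against control with a mean-variance trend. Adjusted p-values are Benjamini-Hochberg values over 10887 genes with a threshold of 0.05, and intervals are 95% intervals of that model. The fit was tested on simulated data. Depth is unknown.

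The members, gene lists and tests were chosen with earlier results of these data known. Lists are described by counts and medians. Beside the members, the genes named are those of each list with the smallest p (up to 3) and 11 fixed ones, including Stat5a and Il2ra, of which 1 is not reported here. GENCODE M21 gave positions and merged exon lengths (99.2% of tested genes) and the longest transcript's GC content. Python 3.11.15 with matplotlib 3.10.9 drew the figures.

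Deviations from the group means correlated between same-numbered libraries at 0.34, 0.16 and 0.28 across genes. Differently numbered libraries gave -0.33 to -0.19 where replicate 1 was one of them, but 0.24 for control replicate 2 with DOPAC replicate 3 and 0.19 for control replicate 3 with DOPAC replicate 2, so that replicates 2 and 3 were not set apart by their number. By a rule of over 0.1 in every pair, the numbers were treated as a possible pairing, though no label gives a shared animal or day. Deviations within a group cancel out, so these correlations depend on each other. The rule therefore could not show that replicates 2 and 3 were paired. The main fit, with its p-values and intervals, took the libraries as unpaired, and the replicate block was an alternative. Alternatives were other pseudocounts (0.1 and 0.5), a minimum of 5 FPKM or none, equal medians, quantile normalization, a replicate block, no variance trend, length and GC trends removed, and each library left out.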

Additional observations from a re-analysis of the deposited data

How the results depend on the processing

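The number of members past the threshold was 0 under every alternative run. The number of all genes past it was 0, except 2 without control replicate 1 (0 to 2 when each library was left out in turn), and 2 when that library was left out and the GC trend removed, an alternative chosen after seeing the data. With the replicate block 0 genes passed, so the pairing changed no call. Dusp1, Dusp4, Dusp5, Dusp6 and Socs3 had the same sign under every alternative run, but their sizes varied. With control replicate 1 left out and the replicate block kept, DOPAC replicate 1 had no partner, so only replicates 2 and 3 set the difference. In that fit Dusp4 went from 0.51 to 0.061 and Dusp5 from 0.40 to 0.11. Dusp6 went from 0.30 to 0.090 without control replicate 1. Socs3, at -0.12 in the main fit, ranged from -0.34 in the fit set by replicates 2 and 3 to -0.021 with the GC trend removed. The former value had an unadjusted p of 0.016 and an adjusted p of 0.290 by limma. Dusp1 ranged from -0.43 (pseudocount 0.1) to -0.20 (control replicate 1 left out, GC trend removed). With the 5 FPKM filter 5 members were tested and the other 5 have no value.

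When each library was left out in turn, log2 fold changes ran from -0.96 to 0.28 for Socs1, -0.046 to 0.090 for Socs2, -0.087 to 0.12 for Cish, -0.60 to 0.0021 for Elob, -0.34 to 0.015 for Eloc, -0.070 to 0.11 for Mapk3, -0.26 to 0.13 for Stat5a, -0.13 to 0.33 for Stat5b, -0.077 to 0.44 for Jak1, -0.089 to 0.33 for Jak3, -0.10 to 0.095 for Cd8a and -0.16 to 0.12 for Cd3e. The list median of JAK kinases and STAT factors ran from -0.077 to 0.35.

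With control replicate 1 left out and the replicate block kept, only replicates 2 and 3 set the difference. Signs changed there for Dusp10 (-0.016), Socs2 (-0.011), Cish (-0.024), Stat2 (-0.0015), Eloc (0.030), Mapk3 (-0.082), Stat5b (-0.097), Jak1 (-0.012), Jak3 (-0.080) and Cd8a (-0.11). In that fit the medians of ERK-responsive transcripts (-0.19), cytokine receptor chains (-0.0039) and STAT5-responsive transcripts (-0.060) moved by more than the spread between replicates. With control replicate 1 left out and the GC trend removed, signs changed for Dusp2 (0.013), Socs1 (0.41), Socs2 (-0.057), Cish (-0.031), Socs4 (-0.032), Elob (0.15), Stat5b (-0.079), Jak1 (-0.084) and Cd8a (-0.12), and the median of other dual-specificity phosphatases moved to 0.031. With all libraries, removing the GC trend changed the sign of Socs2 (-0.14), Stat5a (0.061) and Cd8a (-0.10), and removing the length trend that of Socs2 (-0.15), Cish (-0.089) and Cd8a (-0.042). Equal medians did so for Socs2 (-0.037), Cish (-0.014), Mapk3 (-0.0064) and Cd8a (-0.035), and quantile normalization for Socs2 (-0.032). The cause of these changes was not tested beyond what each alternative alters.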

Other observations

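Socs1 was not alone in being high in replicate 1 of both groups, a pattern looked for after its values were seen. In 1332 of 10887 genes both replicate 1 libraries lay above the other 4, and in 16 the lower of these values was at least 3 times the highest of the others. Socs1 was the 11th of these with a ratio of 3.91. Jund, a subunit of AP-1, measured 92.5 and 168 FPKM in replicate 1 of the control and DOPAC groups, against 8.64 to 20.6 FPKM elsewhere. Rpl13, a ribosomal protein gene, measured 548 and 399 FPKM in the replicate 1 libraries and 64.8 to 83.2 FPKM in the rest. H2ax, a histone variant gene, measured 29.7 and 44.6 FPKM there and 7.23 to 9.45 FPKM in the rest. The labels give no shared animal, day or batch for replicate 1.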
